A study of Mus musculus with 12 samples.

Results

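Untreated adult hippocampal neural stem cells (NSCs) were compared with NSCs that had received both a glutamate transporter blocker and glutamate, the corner-to-corner comparison of a design with 2 levels of each agent. The members were the 6 libraries whose labels read TFBTBOA-Glut (3 libraries) or Veh-Veh (3 libraries), out of 12 in the series, and every gene with a normalized count averaging 10 or more over the 12 libraries, which left 14266 of 50600 table entries. Differences are given as TFBTBOA-Glut minus Veh-Veh on the scale log2(normalized count + 1), where a change in a weakly expressed gene looks smaller than it is. Cells of both groups were NSCs from the dentate gyrus (DG) of adult C57BL/6J mice, at passage 4, kept in medium with EGF and FGF2, mitogens that keep them dividing, at 20 ng/ml each. TFBTBOA-Glut wells had 1 µM TFB-TBOA for 15 min before 100 µM glutamate was added, Veh-Veh wells had vehicle at both steps, and RNA was taken after 48 h. The 2 groups therefore differ in both agents at once, and their separate parts in any difference cannot be told apart from these 6 libraries alone. The other groups had glutamate alone (Veh-Glut) or the blocker alone (TFBTBOA-Veh), 3 libraries each.

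Excitatory amino acid transporters (EAATs) carry glutamate into cells together with sodium, and in the brain they clear glutamate released at synapses. EAAT1, the product of Slc1a3, is abundant in astrocytes and in the radial glia-like stem cells of the DG, and TFB-TBOA blocks EAATs without being carried itself. Glutamate taken up by a cell can feed the tricarboxylic acid cycle and the synthesis of other amino acids. In the blocked group glutamate was present in the medium together with a blocker of its entry through EAATs, which is the condition the comparison sets against cells given neither agent.

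Each library pooled the RNA of many cells, a subset of those harvested from a well, so fewer cells of a type and less RNA per cell cannot be told apart. Recovered reads per library ran from 14051705 to 17215581 in Veh-Veh and from 13064545 to 18372691 in TFBTBOA-Glut, and replicate libraries of these groups had correlations of 0.970 to 0.973 (Pearson, over genes). Replicates are culture wells of cells derived from pooled mice, and the p-values reflect only well-to-well spread, which may be technical. The NSC label was checked against 10 marker genes, all of which were measured: Nes ran from 26845 to 28881, Fabp7 from 24876 to 27029 and Slc1a3 from 28660 to 32484 over the 6 libraries. Pax6, also on the list, was at only 270 to 413. The 10 summed to 111850 to 115530 in Veh-Veh and 112730 to 118780 in TFBTBOA-Glut, sums that rest mostly on the abundant members. Markers of mature astrocytes were mixed, with Aldh1l1 at 2866 to 3422 and Gfap at only 24.4 to 54.7. Of 7 microglial markers in the table, Cx3cr1, Aif1 and Tmem119 were at 0 in all 6 libraries, and the summed level was 14.8 to 58.3 in Veh-Veh and 21.2 to 52.8 in TFBTBOA-Glut. P2ry12, the only 1 of the 7 to pass the filter on the mean, was detected in all 6 libraries at 14.8 to 51.6. The 6 endothelial markers summed to 37.1 to 77.5 and 43.2 to 86.0, and Olig1, a marker of the oligodendrocyte lineage, was among the abundant transcripts at 41571 to 51786. Of 8 markers of that lineage 5 passed the filter on the mean, while Sox10, Mbp and Mog did not. The 8 summed to 49189 to 54869 in Veh-Veh and 44715 to 48449 in TFBTBOA-Glut, sums that rest mostly on Olig1. Xist was at 379 to 647 in the 6 libraries and the 4 Y-linked genes looked at (Ddx3y, Eif2s3y, Kdm5d and Uty) were at 0 in all of them. TFBTBOA-Glut replicate 2 stood apart in ribosomal protein genes, 32 of which summed to 274330 there against 197480 in the lowest library of its group and 205780 to 232800 in Veh-Veh.

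NSCs given blocker and glutamate differed from untreated NSCs mainly by genes that were higher. Of 14266 genes, 81 were higher (0.568%) and 7 were lower (0.0491%) at an adjusted p under 0.05 (limma, Benjamini-Hochberg), 88 in all (0.617%). By adjusted p the first rises were Ctgf, Igfbp5, Ache, Gmpr and Fras1, and by size they were the weakly expressed Gimap6, Gm12666, Npvf, Dusp27 and Colq. The falls included Arrdc3, Klf10 and the DNA synthesis gene Rrm2. Among the 81 higher genes the median log2 difference was 0.79, from 0.38 to 4.70, and 26 of them were at 1 or more on this scale. The 7 lower genes ran from -3.14 to -0.36. Over all genes tested the median difference was 0.01 and 51.0% were above 0. The called genes were not confined to low counts: 7 of 3932 genes with a mean from 10 to 100 passed (0.178%), 45 of 6553 from 100 to 1000 (0.687%) and 36 of 3781 at 1000 or more (0.952%). At an unadjusted p under 0.05 there were 1486 genes (10.4%), and the groups did not overlap in 16.3% of genes (8.43% higher, 7.91% lower). On recovered reads edgeR called 0.54% higher and 0.0421% lower, and DESeq2 1.58% of the genes it gave an adjusted p for higher and 0.405% lower. With robust variance and no trend, limma called only 4 higher and 0 lower, with 1257 genes at an unadjusted p under 0.05.

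**Figure D1:**
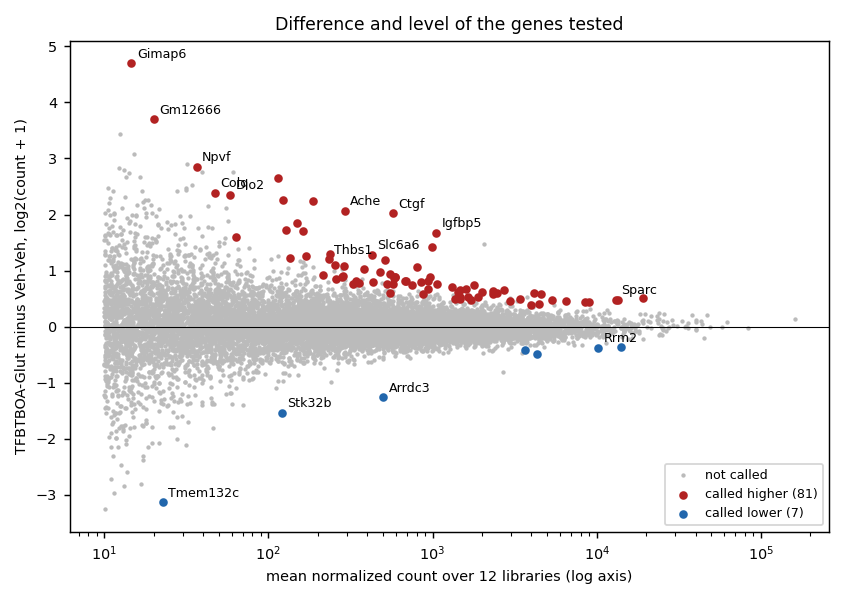
Difference between TFBTBOA-Glut and Veh-Veh on log2(count + 1) (vertical axis) against the mean normalized count over 12 libraries (horizontal log axis) for 14266 genes. Red points are the 81 genes called higher and blue points the 7 called lower, and called genes are seen from low to high counts.

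Genes of the matrix and of growth factor binding had the 2 smallest adjusted p-values. Where values are joined by "against", the Veh-Veh libraries come first. Ctgf (named Ccn2 in later annotation), a secreted matricellular protein and a standard target of the YAP and TEAD transcription factors, lies at chr10:24595442-24598683 on the plus strand of GRCm38. Its normalized counts were 217, 219.5 and 226 in Veh-Veh and 1019, 868 and 834 in TFBTBOA-Glut. The lowest treated library was thus well above the highest untreated one (log2 difference 2.03, standard error 0.13, 95% interval 1.74 to 2.32, adjusted p = 3.45e-05), and no gene had a smaller adjusted p. Igfbp5, a secreted protein that binds insulin-like growth factors, had 444, 531 and 457 in Veh-Veh and 1504, 1402 and 1668 in TFBTBOA-Glut (log2 difference 1.67, standard error 0.12, 95% interval 1.42 to 1.93, adjusted p = 3.95e-05). Thbs1, which encodes thrombospondin 1, a matrix glycoprotein that glia also release, had 125, 151 and 163 against 263, 334 and 436 (log2 difference 1.21, standard error 0.21, 95% interval 0.75 to 1.66, adjusted p = 0.0217). The Thbs1 groups did not overlap, but its call was lost in 5 of the 6 fits that left out a library. Sparc, a collagen-binding matricellular protein, was the most abundant of these at 11908, 11985 and 11223 in Veh-Veh and 16490, 17382 and 15214 in TFBTBOA-Glut, a smaller rise (log2 difference 0.48, standard error 0.07, 95% interval 0.33 to 0.63, adjusted p = 0.00711). Lamc1, the gamma chain shared by many laminins of basement membranes, had 7278, 6793 and 7407 against 8962, 10472 and 9791 (log2 difference 0.44, adjusted p = 0.0208). Its call was kept in 2 of the 6 fits that left out a library.

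Further genes of the pericellular space were among the 81, some of them outside the rule for naming genes and chosen here for their known role after their values were seen. Fras1, an extracellular protein of basement membranes, went from 312–329.8 in Veh-Veh to 681–802 in TFBTBOA-Glut (log2 difference 1.19, adjusted p = 0.00171). The metalloproteases Adamts16 and Adamts1 were both higher, Adamts16 from 48.8–95.8 to 286–376 (log2 difference 2.24, adjusted p = 0.00212) and Adamts1 from 500.0–531 to 903–1189.8 (log2 difference 1.06, adjusted p = 0.00363). The collagen genes Col12a1 (log2 difference 0.92) and Col28a1 (0.81) and the matrix genes Ecm2 (1.11), Vwa1 (0.75) and Fndc1 (0.58) also passed, with adjusted p from 0.0045 to 0.0493. Tgfbr2, the type II receptor for transforming growth factor beta, rose from 1081–1197 to 1584–1683 (log2 difference 0.52, adjusted p = 0.0267). Fgf1, a fibroblast growth factor, rose from 647–724 to 976–1037 (log2 difference 0.57, adjusted p = 0.0327).

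Set against gene lists, these rises were carried by a few members each. Of 20 YAP-TEAD targets tested, 2 were higher (Ctgf and Crim1) and none lower, with a list median of 0.22 and 16 above 0. Crim1, a transmembrane regulator of growth factors, had 493, 525 and 361 in Veh-Veh and 869.9, 877 and 783 in TFBTBOA-Glut (log2 difference 0.89, adjusted p = 0.0197). It kept its call in 2 of the 6 fits that left out a library. Cyr61, the closest relative of Ctgf on the list, had 412, 368 and 357 against 476, 446 and 461 and did not pass (log2 difference 0.29, adjusted p = 0.481), nor did Rbms3 (0.46, adjusted p = 0.265). Of 26 genes for extracellular matrix and adhesion, 3 were higher (Thbs1, Sparc and Lamc1) and none lower, with a median of 0.17 and 21 above 0. Itga5, the integrin subunit for fibronectin, had 456, 551 and 541 against 577, 479.6 and 609.8, overlapping groups (log2 difference 0.10, standard error 0.14, 95% interval -0.20 to 0.41, adjusted p = 0.865). Of 10 genes of the insulin-like growth factor system only Igfbp5 passed, with a median of 0.27 and 9 above 0. Igfbp7, another binding protein, had 33.1, 43.5 and 20.0 against 96.4, 72.3 and 63.4, separate groups that missed the threshold (log2 difference 1.28, adjusted p = 0.188). Igf2r, the receptor that takes up Igf2, had 939, 898 and 852 against 1279, 1158 and 1406 (log2 difference 0.51, adjusted p = 0.0656, but 0.00166 by DESeq2). These medians compare with 0.01 over all genes, and the counts with 0.568% of all genes called higher.

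Of 15 annexin and caveola genes tested, 2 were higher (Ptrf and Anxa5), none lower, the median was 0.27 and 12 were above 0, against 0.568% higher and a median of 0.01 over all genes. Ptrf (named Cavin1 in later annotation), which coats caveolae, had 2089, 2346 and 2068 in Veh-Veh and 3362, 3519.9 and 3380.2 in TFBTBOA-Glut (log2 difference 0.66, standard error 0.08, 95% interval 0.48 to 0.84, adjusted p = 0.00445). Anxa5, a calcium-dependent phospholipid-binding protein, had 991, 1033 and 1105 against 1791, 1587 and 1706 (log2 difference 0.70, standard error 0.10, 95% interval 0.49 to 0.91, adjusted p = 0.00711). Both were separated without overlap, while Cav1, the caveolin that builds caveolae with Ptrf, was scarce at 0, 27.6 and 27.4 against 49.8, 63.1 and 76.8, separate groups that missed the threshold (log2 difference 2.76, adjusted p = 0.336). Anxa6 had 6492 to 7361 against 8403 to 8465 and did not pass limma (log2 difference 0.27, adjusted p = 0.152, but 0.0486 by DESeq2). Sept4, a septin of the cytoskeleton, was the only 1 of 9 septins to pass, at 1207, 1329.7 and 1109 against 1664, 1769 and 1690.1 (log2 difference 0.49, adjusted p = 0.0488). Sptan1, the alpha chain of non-erythroid spectrin, was among the most abundant genes called, at 15481 to 16247 against 21519 to 23321 (log2 difference 0.51, adjusted p = 0.00273).

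Ache and Colq, whose products act together, were both higher. Ache hydrolyses acetylcholine, and Colq is the collagen tail that anchors the enzyme outside the cell. Ache had 114, 107 and 103 in Veh-Veh and 585, 379 and 426 in TFBTBOA-Glut (log2 difference 2.07, standard error 0.19, 95% interval 1.65 to 2.48, adjusted p = 0.000455). Colq had 16.5, 9.54 and 14.7 against 96.4, 53.9 and 77.8, again without overlap (log2 difference 2.39, standard error 0.40, 95% interval 1.53 to 3.25, adjusted p = 0.0186), but its call was lost in 5 of the 6 fits that left out a library. Lynx1, a membrane-anchored modulator of nicotinic receptors chosen after its value was seen, rose from 364–489 to 732–862 (log2 difference 0.89, adjusted p = 0.0141). Gabra2, a subunit of the GABA-A receptor, also so chosen, had 158, 123 and 186 against 377, 361 and 397 (log2 difference 1.29, adjusted p = 0.00711). Lynx1 kept its call in 2 of the 6 fits that left out a library, and Gabra2 in 5. Slc6a6, the sodium-coupled carrier of taurine, had 354, 262 and 278 against 783, 652 and 738 (log2 difference 1.29, standard error 0.15, 95% interval 0.96 to 1.61, adjusted p = 0.00273), and it was the 1 member called of 15 amino acid carriers tested. Among all genes tested, 0.568% were called higher. Npvf, a neuropeptide precursor, was near the floor without treatment at 6.96, 7.42 and 12.6 and reached 87.4, 63.1 and 59.5, a ratio of summed reads of 8.00 with a 95% counting interval of 5.35 to 12.4 (27 and 224 reads).

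Single regulators of signalling and metabolism were also among the 81, with no list of such genes behind them. Rgs16, which switches off heterotrimeric G proteins, had 49.6, 35.0 and 53.7 in Veh-Veh and 196, 255 and 216 in TFBTBOA-Glut (log2 difference 2.26, standard error 0.25, 95% interval 1.72 to 2.80, adjusted p = 0.00186). Gmpr, which converts guanosine monophosphate to inosine monophosphate, had 663, 537 and 485 against 1438, 1390.5 and 1644 (log2 difference 1.42, standard error 0.13, 95% interval 1.13 to 1.70, adjusted p = 0.000455). Dio2 activates thyroid hormone by removing an iodine, and had 20.9, 8.48 and 20.0 against 84.1, 74.6 and 89.3 (log2 difference 2.35, adjusted p = 0.0208). Dusp27 (a phosphatase-like protein) had 30.5, 45.6 and 20.0 against 241, 114 and 273 (log2 difference 2.65, adjusted p = 0.00711). Other called regulators, chosen after their values were seen, were the sphingosine kinase gene Sphk1 (log2 difference 1.71, adjusted p = 0.00711), the calmodulin-dependent kinase kinase gene Camkk1 (log2 difference 1.72, adjusted p = 0.0045), and Stat3, a transcription factor downstream of cytokine receptors (log2 difference 0.47, adjusted p = 0.00901). The class IIa histone deacetylase genes Hdac9 (log2 difference 1.23, adjusted p = 0.0267) and Hdac5 (log2 difference 0.63, adjusted p = 0.0208) were called as well. Bcl2l1, which encodes an inhibitor of apoptosis, rose from 1405–1609 to 1977–2092 (log2 difference 0.47, adjusted p = 0.0448), the only 1 of 16 apoptosis genes to pass. Id3, an inhibitor of basic helix-loop-helix factors that bone morphogenetic proteins induce, rose from 3272–3637 to 4325–4587 (log2 difference 0.38, adjusted p = 0.0479), the only 1 of 10 genes of that list, and was not called by edgeR (adjusted p = 0.0591). Beside these counts of 1 of 16 and 1 of 10, 0.568% of all genes tested were called higher. Hdac9, Bcl2l1 and Id3 lost their calls in each of the 6 fits that left out a library, and Hdac5 in 5. Dio2 kept its call in 2 of these fits, Stat3 in 3, and Dusp27 and Sphk1 in 5 each.

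The genes with the largest log2 differences were weakly expressed. Gimap6, a GTPase known from lymphocytes, was at 0 in all Veh-Veh libraries and at 25.3, 18.4 and 33.6 in TFBTBOA-Glut, which is at least 26.3-fold higher against a floor of 3 reads over the group (adjusted p = 0.0245). Gm12666 had 0.87, 2.12 and 1.05 against 25.3, 28.7 and 32.6, a ratio of 21.7 with a 95% counting interval of 8.18 to 81.3 (4 and 90 reads). Each lost its call in 5 of the 6 fits without 1 library.

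**Figure D2:**
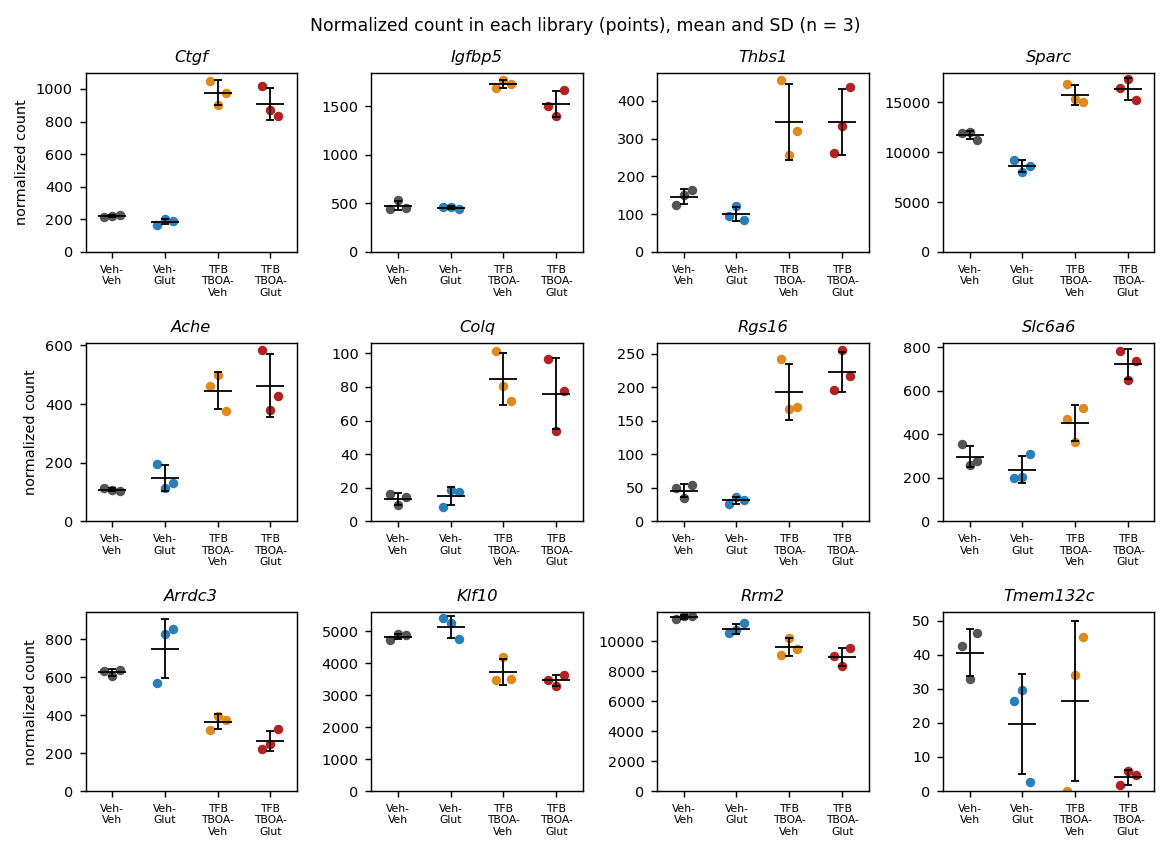
Normalized counts (vertical axes, from 0) of 12 called genes in the 12 libraries, by group (horizontal axis). Points are libraries, long bars the mean and error bars the SD (n = 3), and in each panel the TFBTBOA-Glut points lie on 1 side of all Veh-Veh points.

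Promoter windows of the genes with the smallest adjusted p are shown because they let the leading members be compared base by base. The windows hold 250 bases before and 50 after the annotated start (RefSeq, GRCm38.p6), printed 5′ to 3′ on the gene's strand, for the 3 higher genes and the 1 lower gene of smallest adjusted p that had a window. Capitals mark matches on either strand to 6 motifs: CATTCC (TEAD), CACCCCA (core of the sterol element of the LDL receptor), CCAAT (NF-Y), TGATGCA (ATF4 core), TGANTCA (AP-1) and CACGTG (E-box). Igfbp5 is at chr1:72874816-72875115 (minus), Ache at chr5:137288004-137288303 (plus), Gmpr at chr13:45507194-45507493 (plus) and Arrdc3 at chr13:80883134-80883433 (plus).
Igfbp5: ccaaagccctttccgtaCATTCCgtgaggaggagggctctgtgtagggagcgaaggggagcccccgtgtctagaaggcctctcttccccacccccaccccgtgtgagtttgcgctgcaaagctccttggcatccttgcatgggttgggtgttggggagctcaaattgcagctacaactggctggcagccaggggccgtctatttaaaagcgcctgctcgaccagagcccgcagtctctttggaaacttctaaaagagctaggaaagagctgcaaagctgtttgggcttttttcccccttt
Ache: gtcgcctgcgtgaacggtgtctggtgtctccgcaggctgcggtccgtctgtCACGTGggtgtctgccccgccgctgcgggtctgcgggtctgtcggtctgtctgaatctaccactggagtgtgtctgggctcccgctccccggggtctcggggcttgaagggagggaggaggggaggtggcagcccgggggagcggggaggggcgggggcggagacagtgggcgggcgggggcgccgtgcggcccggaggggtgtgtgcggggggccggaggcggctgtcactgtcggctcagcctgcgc
Gmpr: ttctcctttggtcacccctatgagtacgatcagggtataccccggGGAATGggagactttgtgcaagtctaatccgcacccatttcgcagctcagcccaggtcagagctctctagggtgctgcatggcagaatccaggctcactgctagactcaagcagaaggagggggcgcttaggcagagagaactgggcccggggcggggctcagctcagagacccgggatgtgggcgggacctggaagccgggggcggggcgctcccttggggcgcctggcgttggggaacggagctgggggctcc
Arrdc3: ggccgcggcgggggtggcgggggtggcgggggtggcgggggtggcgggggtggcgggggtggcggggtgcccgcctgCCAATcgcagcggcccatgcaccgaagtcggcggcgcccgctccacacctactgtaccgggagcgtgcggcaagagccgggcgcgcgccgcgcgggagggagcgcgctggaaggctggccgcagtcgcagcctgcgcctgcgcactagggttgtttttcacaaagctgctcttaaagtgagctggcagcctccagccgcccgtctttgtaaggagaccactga

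Each of these windows held a single match. Arrdc3 had 3 windows, of which only 1 is printed and described, and the other genes had 1 each. Igfbp5 carried the TEAD hexamer starting 233 bases before the start site and Gmpr carried its reverse complement 205 bases before it, Ache had an E-box at 199 bases and Arrdc3 a CCAAT box at 173 bases. Windows were found for 62 of the 81 higher genes, 89 windows in all. The TEAD hexamer was in 19 of them (21.3%), against 12.1% of 13185 windows of genes tested and 14.7% of all 32851 windows. CCAAT was in 33.7% of the windows of higher genes against 38.3% of those of genes tested, CACCCCA in 12.4% against 7.67%, CACGTG in 10.1% against 9.94%, TGANTCA in 5.62% against 4.85% and TGATGCA in 2.25% against 1.87%. A match of a short motif is a description of the sequence and was not tested.

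Few genes were lower after the combined treatment, and they included genes of growth control and DNA synthesis. Arrdc3, an alpha-arrestin related to the glucose-responsive Txnip, had 636, 605 and 637 in Veh-Veh and 221, 248 and 326 in TFBTBOA-Glut (log2 difference -1.26, standard error 0.16, 95% interval -1.60 to -0.91, adjusted p = 0.00445). It kept its call in each of the 6 fits that left out a library, the only lower gene to do so. Klf10, a zinc finger factor induced by transforming growth factor beta, had 4737, 4908 and 4876 against 3483, 3293 and 3644 (log2 difference -0.48, standard error 0.07, 95% interval -0.64 to -0.32, adjusted p = 0.0139). Rrm2, a subunit of ribonucleotide reductase that supplies deoxynucleotides, had 11437, 11700 and 11664 against 9023, 8330.4 and 9506 (log2 difference -0.38, standard error 0.07, 95% interval -0.52 to -0.23, adjusted p = 0.0278). With a library left out, Klf10 kept its call in 2 of the 6 fits and Rrm2 in 1. Fam64a (named Pimreg in later annotation), a mitotic regulator, went from 3928–4267 to 2859–3281 (log2 difference -0.41, adjusted p = 0.0448). Hmgn2, a nucleosome-binding protein, went from 14525–16204 to 11473–12530 (log2 difference -0.36, adjusted p = 0.0338). The remaining falls were in weaker transcripts, Stk32b, a kinase gene, from 202, 139 and 236 to 79.2, 50.5 and 66.3 (log2 difference -1.53, adjusted p = 0.0217), and Tmem132c from 42.7, 32.9 and 46.3 to 1.63, 5.74 and 4.80 (log2 difference -3.14, adjusted p = 0.0283). Stk32b kept its call in 2 of the 6 fits that left out a library, and Tmem132c in 1. None of the 7 lower genes had overlapping groups.

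Most proliferation genes lay below 0 by small amounts, and Rrm2 alone passed limma among the lists for DNA replication, mitosis and ribosome biogenesis. Its call was kept in only 1 of the 6 fits that left out a library. Of 28 DNA replication genes 1 was lower (Rrm2; 0.0491% of all genes were), none higher (10 at an unadjusted p under 0.05, 1 lower by edgeR, 2 by DESeq2), the median was -0.19 and 3 were above 0, with groups lower without overlap in 12 of 28 against 7.91% of all genes. Mcm10, a replication initiation factor, had 1201, 1199 and 1254 in Veh-Veh and 826, 918 and 969.9 in TFBTBOA-Glut (log2 difference -0.43, adjusted p = 0.116, but 0.0101 by DESeq2), and Uhrf1, which maintains DNA methylation, had 5479.7, 5268 and 5303 against 4398, 4309 and 4773 (log2 difference -0.25, adjusted p = 0.207). Of 28 mitosis genes none passed limma (7 at an unadjusted p under 0.05, 0 by edgeR and 0 by DESeq2), the median was -0.16, 1 was above 0 and 8 were below without overlap. Top2a, the topoisomerase of dividing cells, had 7369.9, 7722 and 8059 against 6454, 6785 and 6817 (log2 difference -0.21, adjusted p = 0.285), and Cenpf, a kinetochore protein, 2522, 2469 and 2503 against 2182, 2054 and 2126 (log2 difference -0.24, adjusted p = 0.295). Of 22 ribosome biogenesis genes none passed limma (11 at an unadjusted p under 0.05, 0 by edgeR, 1 lower by DESeq2), with a median of -0.19 and 3 above 0. Nop58, a core protein of snoRNA particles, had 3133, 3274 and 3481 against 2675, 2453 and 2601, without overlap but short of the limma threshold (log2 difference -0.35, adjusted p = 0.0967, but 0.00664 by DESeq2). Summed over the list, mitosis genes were at 80334 to 81986 in Veh-Veh and 71422 to 73692 in TFBTBOA-Glut, and DNA replication genes at 84853 to 85931 and 71355 to 77523. The G1 cyclins and CDK inhibitors had a median of 0.02 with 0 of 15 called (2 at an unadjusted p under 0.05, 0 by edgeR or DESeq2), with Ccnd1 at 12067 to 13551 against 9337 to 11130 (log2 difference -0.28, adjusted p = 0.195).

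No lipid synthesis gene passed limma. Of 22 cholesterol synthesis genes none passed limma (1 at an unadjusted p under 0.05, 0 by edgeR or DESeq2), the median was 0.04 and single genes ran from -0.15 to 0.23. Cyp51, which demethylates lanosterol, was at the upper end with 8637, 8317 and 8802 in Veh-Veh and 10176, 9522 and 10535 in TFBTBOA-Glut (log2 difference 0.23, standard error 0.07, 95% interval 0.08 to 0.38, adjusted p = 0.213). Of 18 fatty acid synthesis genes none passed limma (1 at an unadjusted p under 0.05, 0 by edgeR, 1 lower by DESeq2). The median was 0.06 and single genes ran from -1.86 to 0.18. Fasn, the fatty acid synthase, had 16050, 14259 and 16063 against 14809, 14715 and 17050 and a difference near 0 (log2 difference 0.01, standard error 0.08, 95% interval -0.16 to 0.17, adjusted p = 0.991). Fads1, a desaturase of polyunsaturated fatty acids, had 6419.7 to 7515 against 7304 to 8364 (log2 difference 0.16, adjusted p = 0.546). Me1, the malic enzyme that makes NADPH, had 2474, 2382 and 2483 against 1959, 1936 and 1893 (log2 difference -0.34, adjusted p = 0.107, but 0.00709 by DESeq2). Of 13 genes of sterol regulation and LDL uptake none passed (0 at an unadjusted p under 0.05, 0 by edgeR or DESeq2), with a median of 0.04.

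Amino acid synthesis and tRNA charging genes had no calls by limma. Of 26 genes of amino acid and one-carbon synthesis none passed limma (8 at an unadjusted p under 0.05, 0 by edgeR, 1 higher and 1 lower by DESeq2), and the median was -0.10. Glul, glutamine synthetase, which joins glutamate to ammonia, had 1155, 1160.1 and 1006 in Veh-Veh and 1415, 1556 and 1509.6 in TFBTBOA-Glut (log2 difference 0.43, adjusted p = 0.102). Gpt2, the mitochondrial alanine aminotransferase, which also uses glutamate, lay the other way with 8843, 8898 and 8598 against 7178, 6290.5 and 7566 (log2 difference -0.33, adjusted p = 0.107). Neither overlapped, and neither passed limma, but both passed DESeq2 (adjusted p = 0.00762 for Glul and 0.0181 for Gpt2). Of 20 cytosolic aminoacyl-tRNA synthetases none passed (6 at an unadjusted p under 0.05, 0 by edgeR or DESeq2), yet 19 of 20 were below 0 with a median of -0.13, against a median of 0.01 over all genes. Nars, the asparaginyl-tRNA synthetase, had 4606, 5114 and 5070.3 against 4539.6, 4149.7 and 4186 (log2 difference -0.20, adjusted p = 0.379). Among carriers, Slc38a2, a sodium-coupled neutral amino acid carrier, had 2477, 2215 and 2927 against 3308, 3728 and 3770.1 (log2 difference 0.51, adjusted p = 0.0584, but 0.00125 by DESeq2).

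The transporters that TFB-TBOA blocks did not pass the test themselves. Slc1a3 had 29527, 29049 and 32395 in Veh-Veh and 30709, 28660 and 32484 in TFBTBOA-Glut (log2 difference 0.01, standard error 0.07, 95% interval -0.13 to 0.16, adjusted p = 0.971). Slc1a2, which encodes EAAT2, had 368, 276 and 279 against 314, 295 and 347 (log2 difference 0.06, standard error 0.16, 95% interval -0.30 to 0.42, adjusted p = 0.942). Slc1a1, which encodes EAAT3, was scarce but separate, at 43.5, 42.4 and 36.8 against 91.5, 110.1 and 72.0 (log2 difference 1.12, adjusted p = 0.145). Slc1a1 passed when all 12 libraries were in a single fit (limma, adjusted p = 0.0455). None of 6 transporters of this family passed in the fit of 6 libraries (1 at an unadjusted p under 0.05, 0 by edgeR or DESeq2), and none of 16 glutamate receptor genes did (5, and 0 by edgeR or DESeq2).

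The lists for stem cell identity, stress and activity had no calls by limma. The 10 NSC markers had a median of 0.00 and none passed (1 at an unadjusted p under 0.05, 0 by edgeR or DESeq2), with Vim at 23798, 24460 and 21289 against 26148, 31240 and 22277 (log2 difference 0.18, adjusted p = 0.585). S100b, an astrocyte calcium-binding protein, had 146, 175 and 136 against 58.0, 70.0 and 87.4, without overlap and short of the limma threshold (log2 difference -1.09, adjusted p = 0.0824, but 0.00983 by DESeq2). Of 22 NRF2 antioxidant and iron genes none passed limma (7 at an unadjusted p under 0.05, 0 by edgeR, 1 lower by DESeq2), with a median of -0.10. Hmox1, heme oxygenase, had 1770.0, 1597 and 1588 against 1370.5, 1250.5 and 1220.5 (log2 difference -0.37, adjusted p = 0.159, but 0.0288 by DESeq2). Of 15 immediate early genes none passed (2 at an unadjusted p under 0.05, 0 by edgeR or DESeq2), and Egr1 had 3421, 3395 and 3403 against 3171, 2632 and 2750.3 (log2 difference -0.26, adjusted p = 0.287). Of 16 genes of the integrated stress response none passed (1, and 0 by edgeR or DESeq2), and of 12 Notch pathway genes none did (0, and 0 by either). Ribosomal protein genes had a median of 0.07 with none of 32 called (0 at an unadjusted p under 0.05, 0 by edgeR or DESeq2), which became -0.09 without TFBTBOA-Glut replicate 2. The 7 neuroblast and neuron markers tested had a median of 0.44 and none passed (2, and 0 by edgeR or DESeq2), the largest being Syt1 at 20.0, 6.36 and 26.3 against 46.6, 75.7 and 44.2 (log2 difference 1.76, adjusted p = 0.207), while Dcx was at 0 in 4 of the 6 libraries.

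The 88 genes were then read in the other 6 libraries, which had no part in the test that called them but did enter the filter on the mean over 12 libraries. The comparison TFBTBOA-Veh minus Veh-Glut is the opposite corner pair and shares no library with the first. There 310 genes were higher (2.17%) and 238 lower (1.67%). Of the 81 genes higher in TFBTBOA-Glut than in Veh-Veh, 80 were also higher in TFBTBOA-Veh than in Veh-Glut, 57 of them past the threshold, with a median of 0.74 against 0.00 over all genes, of which 50.2% were above 0. Gm12666 was the exception, at 26.5, 30.6 and 24.1 in Veh-Glut and 17.5, 28.9 and 23.1 in TFBTBOA-Veh, so that its low group was Veh-Veh alone. Of the 7 lower genes 6 were lower and 3 passed (Fam64a, Klf10 and Arrdc3), and Stk32b was the exception. Across all 14266 genes the 2 comparisons correlated at r = 0.286, a description across genes, which are not replicates.

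**Figure D3:**
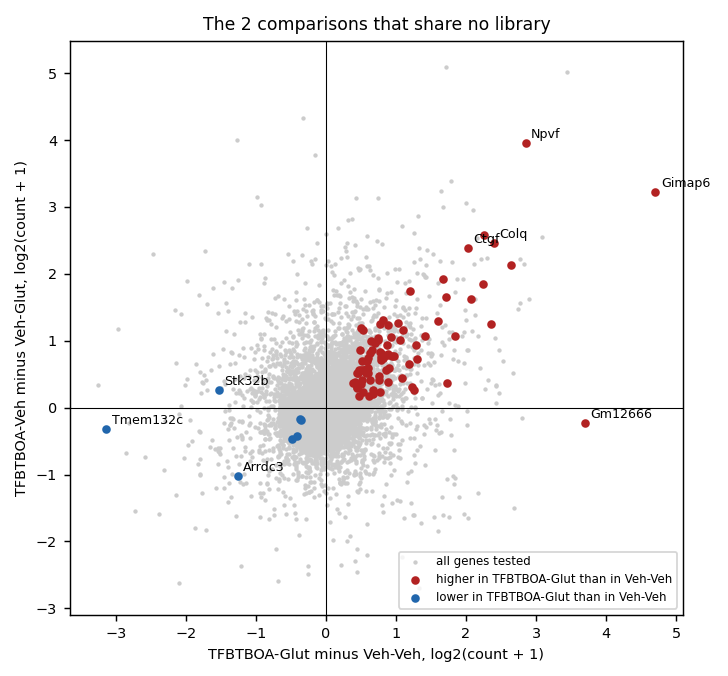
Differences on log2(count + 1) in the comparison TFBTBOA-Glut minus Veh-Veh (horizontal) and in TFBTBOA-Veh minus Veh-Glut (vertical), which share no library, for 14266 genes. Of the red genes, called higher on the horizontal axis, 80 of 81 lie above 0 on the vertical axis, and of the 7 blue genes 6 lie below it.

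The reverse reading, from the comparison with more calls to the one with fewer, was less complete. Of the 310 genes higher in TFBTBOA-Veh than in Veh-Glut, 282 were above 0 in TFBTBOA-Glut minus Veh-Veh (median 0.33) and 57 were called there. Over all genes 51.0% were above 0 and 0.568% were called higher. Of the 238 genes lower in TFBTBOA-Veh than in Veh-Glut, 210 were below 0 (median -0.18), 92 without overlap, and 3 were called. Over all genes 7.91% were lower without overlap and 0.0491% were called lower. Of the cholesterol synthesis genes, 13 of 22 were lower in TFBTBOA-Veh than in Veh-Glut (median -0.43) and 0 of 22 were called in TFBTBOA-Glut minus Veh-Veh. There 4 were higher and 1 lower without overlap, as were 8.43% and 7.91% of all genes. For aminoacyl-tRNA synthetases the counts were 11 lower and 1 higher of 20 (median -0.43) against 0, and for mitosis genes 10 lower of 28 (median -0.32) against 0. Annexin and caveola genes had higher calls in both, 8 of 15 (median 0.65) against 2, and YAP-TEAD targets 4 of 20 (median 0.10) against 2. Over all genes, 2.17% were called higher and 1.67% lower in TFBTBOA-Veh minus Veh-Glut, against 0.568% and 0.0491% in TFBTBOA-Glut minus Veh-Veh. Whether the list counts differ between the comparisons was not tested.

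**Figure D4:**
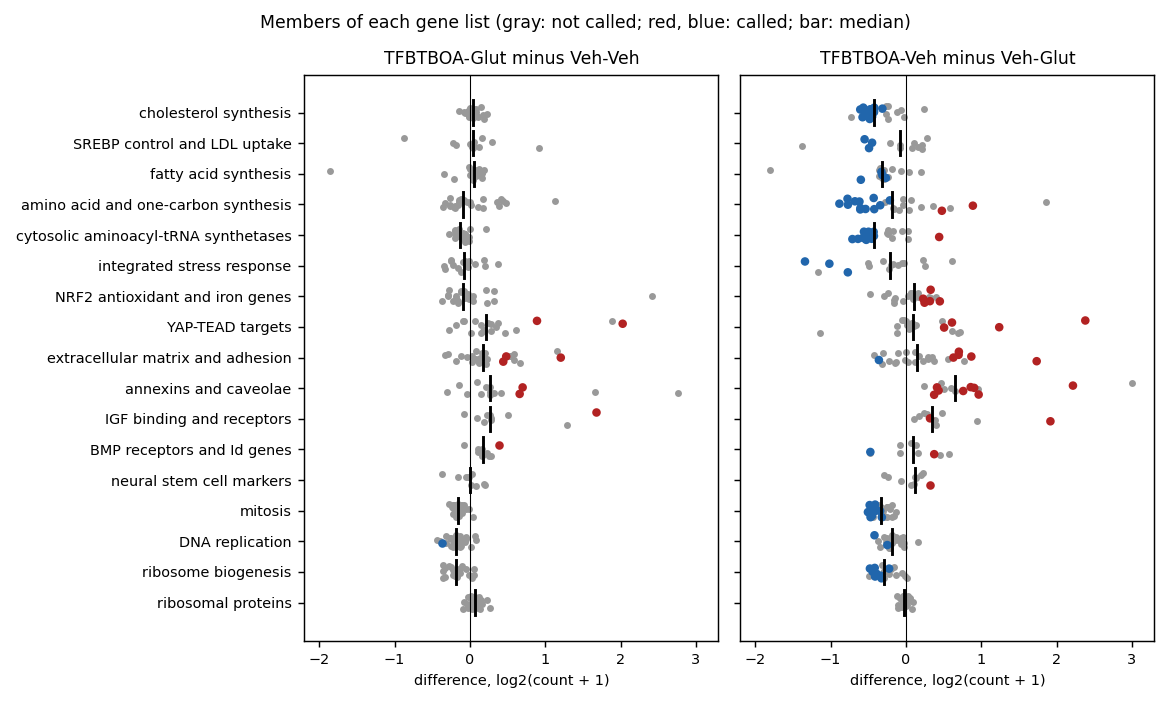
Difference of each measured member (points) of 17 gene lists on log2(count + 1), in TFBTBOA-Glut minus Veh-Veh (left) and TFBTBOA-Veh minus Veh-Glut (right). Bars are list medians and colored points passed the threshold, red higher and blue lower, with cholesterol synthesis at a median of 0.04 on the left and -0.43 on the right.

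The other groups place the 88 genes. The comparisons with Veh-Veh share its libraries with the main one, so their values are given side by side and not as further support. Of the 81 higher genes, all were above Veh-Veh in TFBTBOA-Veh (median 0.74, 68 past the threshold, as were 0.925% of all genes) and 42 were above it in Veh-Glut (median 0.01, none higher and 2 lower past the threshold, against 0.133% and 0.028% of all genes). The 2 were Sparc, at 9266, 7993 and 8612 in Veh-Glut, and Sept4, at 809, 716 and 785, both under every Veh-Veh library. Ctgf had 167, 201 and 192 in Veh-Glut and 1052, 900.4 and 978 in TFBTBOA-Veh, and Igfbp5 had 467, 467 and 439 and 1692, 1775 and 1735, so that in both genes the groups with the blocker were high and those without it low. Slc6a6 was different in its values, with 471, 363 and 524 in TFBTBOA-Veh, all below the 3 TFBTBOA-Glut libraries, but that difference did not pass (log2 difference 0.69, adjusted p = 1.00). Itga5 showed the reverse, 839.5, 895 and 927 in TFBTBOA-Veh against 577, 479.6 and 609.8 in TFBTBOA-Glut (log2 difference -0.68, adjusted p = 1.00). Against Veh-Glut, whose comparison shares the TFBTBOA-Glut libraries, 55 of the 81 were higher and 4 of the 7 lower (1.23% and 0.953% of all genes). Arrdc3 had 572, 829 and 854 in Veh-Glut and 321, 396 and 377 in TFBTBOA-Veh. Tmem132c was scattered in both other groups, from 2.78 to 29.5 in Veh-Glut and from 0 to 45.3 in TFBTBOA-Veh.

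The calls rest on 3 libraries a group and were sensitive to each. With 1 library left out, 19 to 58 genes were higher and 1 to 16 lower, and 15 of the 88 kept their call in all 6 such fits: Rgs16, Adamts16, Ache, Ctgf, Camkk1, Igfbp5, Gmpr, Slc6a6, Fras1, Adamts1, Plekha1, Vwa1, Ptrf, Sptan1 and Arrdc3. Another 20 lost it in all 6, among them Hdac9, Bcl2l1, Id3, Sept4, Tgfbr2, Fgf1, Col12a1, Hmgn2 and Fam64a. Exons of 17 of the 88 genes overlap a gene on the other strand, Ctgf, Ache, Rgs16, Slc6a6, Thbs1, Gmpr and Fras1 among them. The library kit does not mark strand, so reads of such pairs cannot be told apart. Colq and Sept4 are among 5 that overlap another gene on their own strand.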

How the data were processed

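Bulk RNA-seq of cultured DG NSCs gave 12 libraries, grouped by their labels. Reads were trimmed of adapters, cleared of ribosomal, mitochondrial and PhiX sequence, aligned with HISAT2 2.0.6 to GRCm38p4 and counted by featureCounts on GENCODE M14, per the study's methods, in stranded mode although the kit marks no strand. The submitters' notes also name CASAVA 1.8.2 and give GRCh38 as the build. The deposited values are the authors' normalized counts, a signal per gene divided by a size factor per library. Dividing by the value of 1 read gave whole reads for 100% of values within 0.05.

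Log2(normalized count + 1) of 14266 genes (mean of at least 10) was fitted in R 4.3.3 by limma 3.58.1 with a variance trend and two-sided tests, on the 6 libraries of each comparison, with Benjamini-Hochberg adjustment over all genes and a threshold of 0.05. The paper's methods used DESeq pairwise and did not include this comparison. Counting intervals are exact at 95% and cover counting error only. Alternatives were pseudocounts of 0.5 and 5, no filter, a mean of at least 50, all 12 libraries in a single fit, a replicate block, TMM scaling, no variance trend, each library left out, and edgeR 4.0.16 and DESeq2 1.42.0 on recovered reads. The limma, edgeR and DESeq2 steps were tested on simulated data. At this depth the median standard error of a log2 difference was 0.17.

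The naming rule took, among called genes without overlap, the 10 largest rises, the 10 largest falls (7 existed) and the 5 of smallest adjusted p each way, then from each list described its 3 lowest p-values, and Slc1a3, Slc1a2, Fasn and Itga5. Other genes named were chosen after their values were seen. The comparison, lists and rule were chosen with earlier results of these data known. The 183 entries that share a symbol with another are not named. Coordinates and overlaps are from GENCODE M21 (GRCm38), matched by symbol or synonym for all 88 called genes, and promoter sequences from RefSeq tables of GRCm38.p6.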

Additional observations from a re-analysis of the deposited data

Results flagged for a closer look

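Cyp51, the lanosterol demethylase of cholesterol synthesis, responded differently to glutamate with and without the blocker. Its means were 8585 ± 247 in Veh-Veh and 12478 ± 400.1 in Veh-Glut, but TFBTBOA-Veh had 10042 ± 120.3 and TFBTBOA-Glut had 10078 ± 514 (SD, n = 3). The glutamate effect with the blocker minus that without it was -0.54 on the log2 scale (limma over all 12 libraries, adjusted p = 0.0263). It was the only named gene whose interaction passed the threshold.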

How the results depend on the processing

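The counts of 81 higher and 7 lower genes became 125 and 24 with all 12 libraries in a single fit, 199 and 51 with DESeq2 on recovered reads (77 and 6 with edgeR), and 4 and 0 with robust variance and no trend, where 1257 genes had an unadjusted p under 0.05. Without the filter on low values 3 were lower. Leaving out a library gave 19 to 58 higher, each below the full count, and 1 to 16 lower; without TFBTBOA-Glut replicate 3 there were 58 and 16, without replicate 1 of that group 19 and 1, and without Veh-Veh replicate 1 there were 22 and 1. In TFBTBOA-Veh minus Veh-Glut the 310 higher and 238 lower genes became 11 and 1 with robust variance and no trend, and 72 to 442 and 52 to 452 with a library left out. The causes were not tested. No called gene changed sign under any of the 16 settings. Pseudocounts, a mean of at least 50 and TMM scaling kept 83 to 88 of the 88 calls. Slc38a2 (adjusted p = 0.0136) and Glul (0.0217) passed with all 12 libraries in a single fit, as did Gpt2 (0.0188), Me1 (0.0259), Nop58 (0.0333), S100b (0.0334), Slc1a1 (0.0455) and Anxa6 (0.0482).

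Replicate numbers gave little sign of pairing: deviations of same-numbered libraries correlated at 0.02, 0.02 and 0.08 in the main comparison. For libraries of different number the correlations ran from -0.06 to 0.04, and so few values cannot exclude a weak pairing. With the number as a replicate block 88 genes were higher and 7 lower, 81 of the 88 calls being kept, and in the other comparison 280 and 204. In the main comparison 1821 genes then had an unadjusted p under 0.05 (limma), against 1486 without the block. With 3 wells a group, small differences were not detectable at this depth for single genes.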
